A study of Mus musculus with 12 samples.

Results

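Transcripts of 8 genes that mark successive stages of B cell maturation were followed in mouse splenic B cells lacking the RNA-binding proteins hnRNP A1 and hnRNP A2B1. The genes were Cd93, Cd24a, Vpreb3, Ms4a4c, Sox4, Fcer2a, Fcmr and Cd55. They were taken by symbol, and all 8 were found among the 52330 genes held by all 3 tables of the study. Poly(A) RNA was sequenced from B cells that were left after beads removed spleen cells bearing CD43. In double knockout (DKO) cells Hnrnpa1 and Hnrnpa2b1 had been removed by Cre-loxP recombination, and the Cre driver is not given in the sources used here. There were 3 DKO and 3 wild-type (WT) libraries of untreated cells. After 48 h of culture with antibodies to CD40 (1 µg/mL) and to IgM (10 µg/mL) there were 2 DKO and 2 WT libraries. Another 2 libraries came from additional WT untreated cells. The pair of antibodies mimics the signals of helper T cells and of antigen.

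B cells leave the bone marrow as immature cells and mature in the spleen through transitional stages into follicular or marginal zone B cells. Transitional cells carry CD93 and high levels of CD24 and keep some transcripts of precursor cells. The IgE receptor CD23, the product of Fcer2a, appears as they mature, and survival through these stages depends on the B cell receptor and on the cytokine BAFF.

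Libraries held 15090953 to 21731893 counts in genes. All 5 DKO libraries kept some targeted transcripts. Untreated DKO library 2 kept 27.4% of the WT mean of Hnrnpa1 and 32.3% of Hnrnpa2b1, and the other DKO libraries kept 10.6% to 14.6% and 17.4% to 22.9%. Untreated DKO library 1 and untreated WT library 2 held Xist at over 1000 CPM (counts scaled to the library total), which the other libraries did not. These 2 had 0.0632 and 0 CPM of the Y-chromosome gene Ddx3y, against 81.6 to 211 CPM in the others, the pattern of female and of male cells. The B cell genes Cd79a and Ptprc were abundant in every library, while 10 T cell markers summed to 1.95 to 5.35 CPM. Of the immature B cell genes that precede the splenic stages, Rag1, Rag2, Dntt, Igll1 and Vpreb1 were at or near 0, with at most 0.311 CPM in any library, and Mme and Vpreb2 had no count. Whether replicates are separate animals is not stated by the labels, and the p-values cover the spread among libraries, which may be technical. In bulk RNA, fewer cells of a stage and less RNA per cell cannot be told apart.

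The promoters of the genes that differed most in untreated cells are shown first, since these are the regions where such transcripts begin. They come from RefSeq on GRCm38.p6, which held 6 of the 8 genes but not Cd93 or Cd24a, and each covers 250 bases before an annotated start, 5′ to 3′ on the gene's strand. Capitals mark matches to 5 motifs searched on both strands. These were the TATA box TATAAA, the STAT element TTCNNNNGAA, the E-box CAGGTG, the PU.1 core GAGGAA and the EBF site TCCCNNGGGA. Fcer2a has several annotated starts, and both farthest upstream are shown.
Vpreb3, chr10:75948050-75948299, plus strand: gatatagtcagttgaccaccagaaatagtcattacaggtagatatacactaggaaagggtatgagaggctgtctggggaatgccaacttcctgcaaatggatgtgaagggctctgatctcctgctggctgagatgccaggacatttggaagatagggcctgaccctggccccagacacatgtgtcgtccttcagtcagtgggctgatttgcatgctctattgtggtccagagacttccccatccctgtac
Ms4a4c, chr19:11407411-11407660, plus strand: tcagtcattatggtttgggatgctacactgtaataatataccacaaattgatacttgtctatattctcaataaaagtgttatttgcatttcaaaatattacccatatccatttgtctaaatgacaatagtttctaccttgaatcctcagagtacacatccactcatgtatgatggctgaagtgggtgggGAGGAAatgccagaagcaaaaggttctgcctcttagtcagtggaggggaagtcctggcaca
Fcer2a, upstream start, chr8:3694175-3694424, minus strand: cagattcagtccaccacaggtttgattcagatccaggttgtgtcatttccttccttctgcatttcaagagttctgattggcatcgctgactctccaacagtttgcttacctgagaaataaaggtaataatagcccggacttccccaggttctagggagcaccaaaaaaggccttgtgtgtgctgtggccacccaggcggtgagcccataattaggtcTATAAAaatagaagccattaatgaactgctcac
Fcer2a, downstream start, chr8:3690862-3691111, minus strand: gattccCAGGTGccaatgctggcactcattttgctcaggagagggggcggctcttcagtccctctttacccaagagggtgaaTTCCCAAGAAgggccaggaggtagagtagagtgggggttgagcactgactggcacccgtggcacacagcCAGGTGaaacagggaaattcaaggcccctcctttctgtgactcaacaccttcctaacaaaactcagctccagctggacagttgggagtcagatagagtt
The upstream Fcer2a start had a TATA box beginning 33 bases before it. The downstream start had a STAT element 168 bases before it and E-boxes at 244 and 99 bases. Ms4a4c had a PU.1 core at 61 bases, as did Sox4 at 72 and, on the reverse strand, Fcmr at 36. In the windows of Vpreb3 and Cd55 these letters were not found. Over 32851 promoters of the same length, 12.4% held the TATA box, 5.9% the STAT element, 17.2% the E-box, 23.3% the PU.1 core and 0.8% the EBF site. A match describes the sequence and is no measured binding site. Counts are of whole genes, so they do not say which Fcer2a start was used.

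In untreated cells the first comparison asked how DKO cells stood against WT cells. Transcripts of the early markers Cd93 and Vpreb3 and of Ms4a4c fell, and Fcer2a, a marker of later cells, rose. No other gene of the 8 rose. Fcmr, also a gene of mature follicular cells, was at -0.45 and did not pass. Of 20 other follicular genes 7 fell and 1 rose, and of 12 other precursor genes 1 fell and 1 rose. Of the 8 genes 4 passed an adjusted p of 0.05 (edgeR quasi-likelihood test), 3 lower and 1 higher, against 19.5% of the 13561 genes tested, of which 10.6% were lower and 8.81% higher. The median log2 fold change of the 8 was -0.45, against -0.01 for all genes tested. The values of the groups did not overlap for 7 of the 8 genes, against 39.4% of all genes tested.

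**Figure D1:**
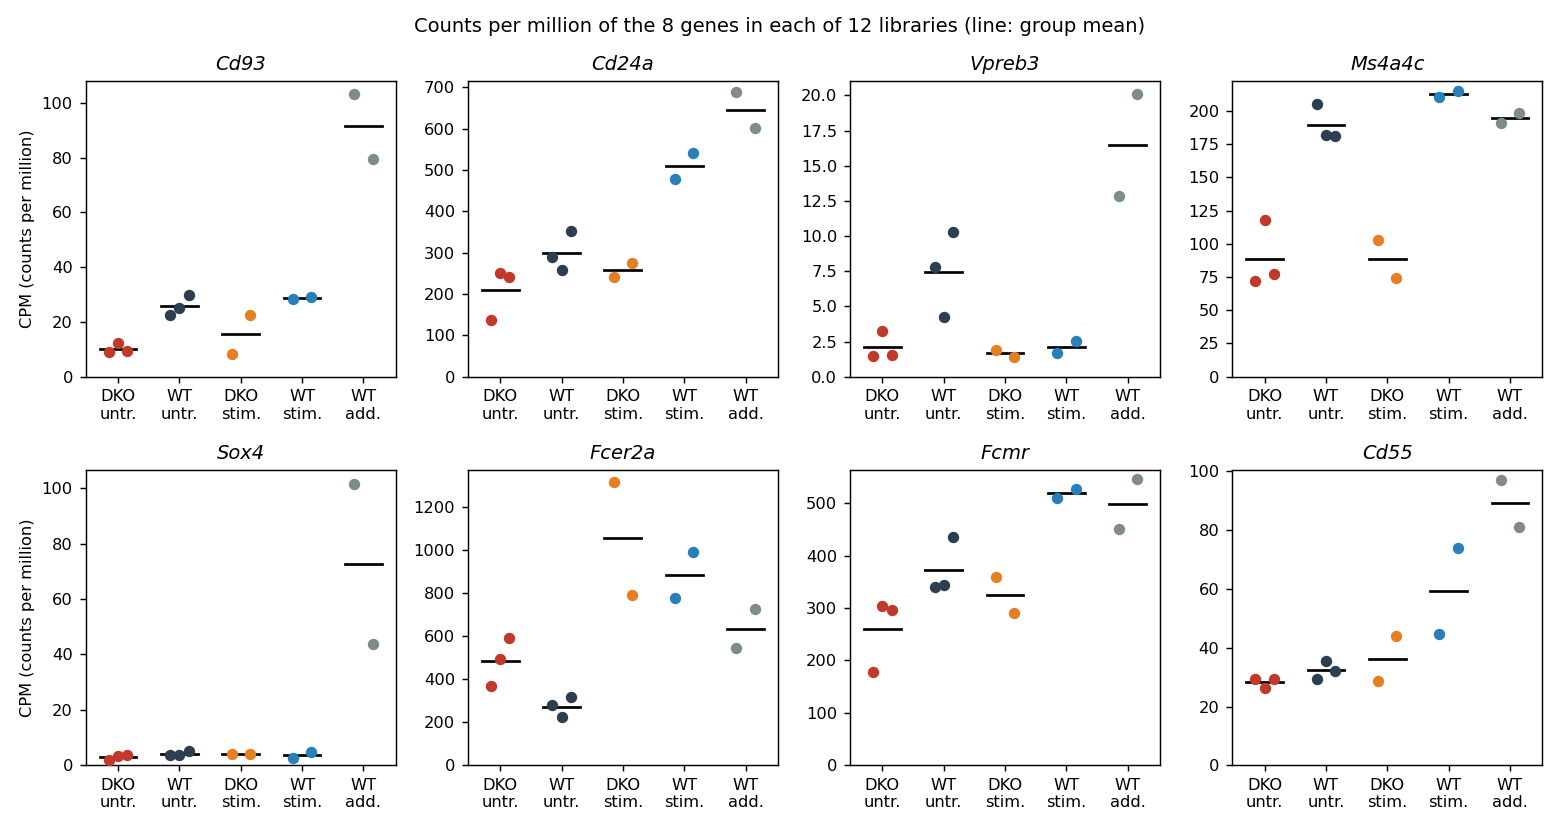
CPM of each gene in every library, on axes that start at 0 and differ between genes, grouped as DKO untreated, WT untreated, DKO stimulated, WT stimulated and additional WT cells. Points are libraries and lines are group means. In untreated cells Cd93 was at 8.91 to 12.4 CPM in DKO and at 22.6 to 29.8 CPM in WT, while Fcer2a was at 369 to 592 CPM in DKO and at 224 to 316 CPM in WT.

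Cd93 (ENSMUSG00000027435; GRCm39 chromosome 2, 148278560 to 148285483, minus strand) encodes the lectin-like receptor recognised by the AA4.1 antibody, which is used to sort transitional cells. It had 8.91, 12.4 and 9.36 CPM in untreated DKO libraries 1 to 3, against 22.6, 24.9 and 29.8 CPM in the WT libraries. Every DKO library was below every WT library. The means were 10.2 ± 1.89 CPM in DKO cells and 25.8 ± 3.65 CPM in WT cells (SD, n = 3 each). On the log2 scale Cd93 fell by 1.26 ± 0.16 (± SE, edgeR adjusted p = 0.00266).

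Cd24a (ENSMUSG00000047139; chromosome 10, 43454280 to 43460261, plus strand) encodes the heat-stable antigen, a small glycoprotein that is abundant on immature cells. It had 137, 250 and 242 CPM in untreated DKO libraries and 290, 258 and 352 CPM in WT libraries. The groups did not overlap, but DKO library 2 and WT library 2 were close. The log2 fold change was -0.44 ± 0.21, with a 95% interval of -0.91 to 0.03, and did not pass (edgeR adjusted p = 0.168). Without the pair of libraries rich in Xist it fell by 0.30 (edgeR adjusted p = 0.0366), and over all alternatives its adjusted p ran from 0.0144 to 0.407.

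Vpreb3 (ENSMUSG00000000903; chromosome 10, 75778891 to 75785491, plus strand) encodes a small immunoglobulin-like protein of precursor B cells. Its counts were low, with 23, 53 and 24 reads in untreated DKO libraries and 150, 69 and 199 in WT libraries. These are 1.45, 3.28 and 1.56 CPM in DKO cells, against 7.81, 4.23 and 10.3 CPM in WT cells. The groups did not overlap, and DKO library 2 lay nearest to WT library 2. On the log2 scale Vpreb3 fell by 1.75 ± 0.40 (edgeR adjusted p = 0.0171). The call rested on single libraries: adjusted p was 0.0711 in edgeR without WT library 3 and 0.0758 without DKO library 3, and ran from 3.88e-05 to 0.0867 over all alternatives. The overlapping antisense gene Gm16221 held 1 read in all over the untreated libraries.

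Ms4a4c (ENSMUSG00000024675; chromosome 19, 11382134 to 11404610, plus strand) encodes a membrane-spanning protein of the family of CD20. It had 71.9, 118 and 77.2 CPM in untreated DKO libraries, against 205, 182 and 181 CPM in WT libraries. The WT libraries lay close together, and every DKO library was below them. Ms4a4c fell by 1.02 ± 0.17 on the log2 scale (edgeR adjusted p = 0.00607). Of its close relatives, Ms4a4d had at most 7 reads in a library and Ms4a4b 15 to 42.

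Sox4 (ENSMUSG00000076431; chromosome 13, 29132902 to 29137696, minus strand) encodes a transcription factor needed by the earliest B cell precursors. It was scarce in these cells, with 33, 54 and 57 reads in untreated DKO libraries and 75, 63 and 97 in WT libraries. The means were 3.05 ± 0.851 CPM in DKO cells and 4.26 ± 0.656 CPM in WT cells (SD, n = 3 each). The log2 fold change of -0.41 ± 0.26 did not pass (edgeR adjusted p = 0.289), and its 95% interval ran from -0.996 to 0.171.

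Fcer2a (ENSMUSG00000005540; chromosome 8, 3731737 to 3744175, minus strand) encodes CD23, the low-affinity IgE receptor of follicular cells, which marginal zone cells largely lack. It had 369, 492 and 592 CPM in untreated DKO libraries, against 279, 224 and 316 CPM in WT libraries. Every DKO library was above every WT library. Fcer2a rose by 0.90 ± 0.17 on the log2 scale, 1.87 times the WT level (edgeR adjusted p = 0.00962). It was the 1 gene of the 8 with a higher DKO value.

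Reads of Fcer2a were divided by those of Cd93 in each library, which sets a later marker against an earlier one without any scaling by depth. The ratio was 41.4, 39.7 and 63.2 in untreated DKO libraries and 12.4, 8.98 and 10.6 in WT libraries. Against Cd24a it was 2.68, 1.97 and 2.45 in DKO libraries and 0.963, 0.867 and 0.898 in WT libraries. Both ratios were higher in each DKO library than in any WT library, and they restate the gene values above.

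Fcmr (ENSMUSG00000042474; chromosome 1, 130793406 to 130808528, plus strand) encodes the Fc receptor for IgM. It had 179, 303 and 297 CPM in untreated DKO libraries and 340, 344 and 435 CPM in WT libraries. The groups did not overlap, yet the log2 fold change of -0.45 ± 0.19 did not pass (edgeR adjusted p = 0.127). Its 95% interval was -0.87 to -0.02.

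Cd55 (ENSMUSG00000026399; chromosome 1, 130366764 to 130390481, minus strand) encodes decay-accelerating factor, which limits complement on the cell's own surface. It had 29.4, 26.2 and 29.5 CPM in untreated DKO libraries, against 29.2, 35.6 and 32.1 CPM in WT libraries. These ranges overlapped, and the log2 fold change of -0.11 ± 0.10 did not pass (edgeR adjusted p = 0.478). The 95% interval of -0.35 to 0.12 holds no change and small changes either way. The related gene Cd55b had at most 2 reads in a library.

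**Figure D2:**
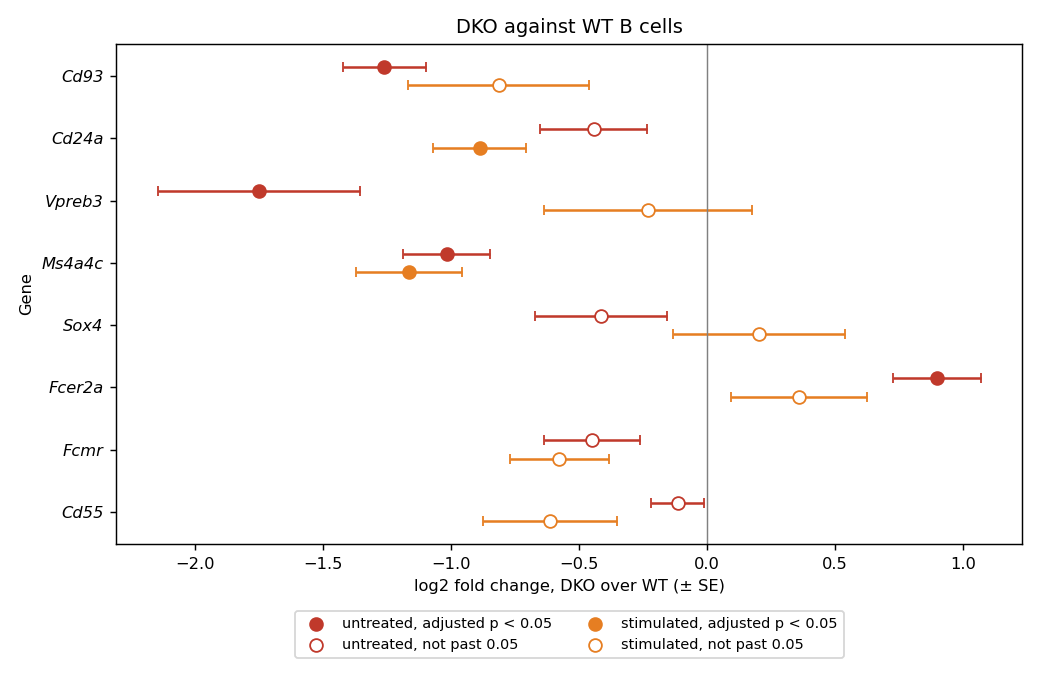
Log2 fold change of DKO over WT for each gene (± SE) in untreated and stimulated cells. Filled points passed an edgeR adjusted p of 0.05. In untreated cells Vpreb3 was at -1.75, Cd93 at -1.26, Ms4a4c at -1.02 and Fcer2a at 0.90, and in stimulated cells Ms4a4c was at -1.16 and Cd24a at -0.89.

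Untreated DKO library 2, which kept the most of both targeted transcripts, had the highest DKO value of Cd93, Cd24a, Vpreb3, Ms4a4c and Fcmr. Without it Cd93 fell by 1.42 (edgeR adjusted p = 0.00364), Vpreb3 by 2.23 (edgeR adjusted p = 0.0145) and Ms4a4c by 1.27 (edgeR adjusted p = 0.00100), while Fcer2a rose by 0.89 (edgeR adjusted p = 0.0281). Untreated DKO libraries 2 and 3 were close in Cd24a (250 and 242 CPM) and Fcmr (303 and 297 CPM). The other genes did not follow this order. Sox4 was highest in DKO library 3 (3.71 CPM), Cd55 was lowest in DKO library 2 (26.2 CPM), and Fcer2a was nearest to WT in DKO library 1 (369 CPM). The part of the remaining transcripts in these values was not tested.

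Levels of different genes were compared per kilobase of exonic length (CPM per kb). In untreated DKO cells the order was Fcer2a (157), Fcmr (149), Cd24a (81.3), Ms4a4c (50.8), Cd55 (5.84), Vpreb3 (2.44), Cd93 (1.53) and Sox4 (0.635). The ranges of Fcer2a and Fcmr overlapped, as did those of Cd24a and Ms4a4c and of Vpreb3 and Cd93. In untreated WT cells the order was Fcmr (215), Cd24a (116), Ms4a4c (108), Fcer2a (88.3), Vpreb3 (8.67), Cd55 (6.65), Cd93 (3.86) and Sox4 (0.889). There the ranges overlapped between Cd24a and Ms4a4c, between Cd24a and Fcer2a and between Vpreb3 and Cd55. Fcer2a thus stood above Ms4a4c in every DKO library and below it in every WT library, while its range overlapped that of Cd24a in WT cells.

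The lists that follow are given beside 10.6% lower and 8.81% higher among all 13561 genes tested in untreated cells. Among other genes of precursor and immature B cells, 12 of 20 listed could be tested in untreated cells. Of these 1 rose and 1 fell in DKO cells, with a median log2 fold change of -0.10. Ptprs, which encodes a receptor tyrosine phosphatase, rose by 1.42 ± 0.16 (edgeR adjusted p = 0.00174). Spn, which encodes CD43, the protein used to deplete cells here, fell by 0.97 ± 0.17 (edgeR adjusted p = 0.00642). Myb, a transcription factor gene of precursors, was at -0.39 (edgeR adjusted p = 0.0700) and Cecr2 at -0.56 (edgeR adjusted p = 0.0682).

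Genes of mature follicular cells besides Fcer2a and Fcmr were mostly lower where they passed. Of 20 tested, 7 fell and 1 rose, with a median of -0.21. S1pr1, the receptor that guides lymphocytes out of tissue, fell by 1.44, and Klf2, the factor that drives its expression in lymphocytes, fell by 1.11. Cd38 fell by 0.91 and Il4ra, the interleukin-4 receptor chain, by 0.61, with edgeR adjusted p from 0.00507 to 0.00908 for these 4 genes. The gene that rose was Ighd, the IgD heavy chain, at 0.31 (edgeR adjusted p = 0.0231), named after its value was seen.

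The 11 genes followed as linked to CD23 were mostly its known regulators and processing enzymes. Of these 4 fell and none rose, with a median of -0.08. They were Nfatc1 at -0.59, Il4ra at -0.61, the kinase gene Jak3 at -0.33 and Rbpj, the nuclear partner of Notch, at -0.24 (edgeR adjusted p from 0.00319 to 0.0491). Adam10, which encodes the protease that sheds CD23, was at -0.17 (edgeR adjusted p = 0.317) and Stat6 at 0.03 (edgeR adjusted p = 0.785).

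Among BAFF receptor and alternative NF-kB genes, 3 of 14 rose and 2 fell, with a median of 0.00. The survival gene Bcl2l1 rose by 0.77 (edgeR adjusted p = 0.00124), and Nfkb2 rose by 0.25 (edgeR adjusted p = 0.0250). Bcl2l11, which encodes the death factor BIM, fell by 0.62 (edgeR adjusted p = 0.00322), and the kinase gene Map3k14 fell by 0.55 (edgeR adjusted p = 0.00995). The third gene that rose was Tnfrsf13b, the receptor TACI, at 0.30, named after its value was seen.

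B cell receptor signalling genes held 5 lower and none higher of 18, with a median of -0.19. Malt1 fell by 0.54, Btk by 0.40 and Pik3ap1 by 0.38 (edgeR adjusted p from 0.00538 to 0.0122). Btk is the kinase whose loss blocks maturation of B cells in mice.

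The families of the single genes were counted in the same way. Of 9 Fc receptor genes besides Fcer2a and Fcmr, 4 fell and none rose, with a median of -0.53. These were Pigr at -1.01, the inhibitory receptor gene Fcgr2b at -0.91, Fcrl5 at -0.69 and Fcrla at -0.67 (edgeR adjusted p from 0.00230 to 0.0335). Of 7 other MS4A genes, Ms4a6c rose by 0.41 (edgeR adjusted p = 0.0340), and none fell. Of 4 complement genes besides Cd55, the regulator Cd46 fell by 1.10 ± 0.25 (edgeR adjusted p = 0.0179). Sox12, a relative of Sox4, was at 0.21 (edgeR adjusted p = 0.462).

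**Figure D3:**
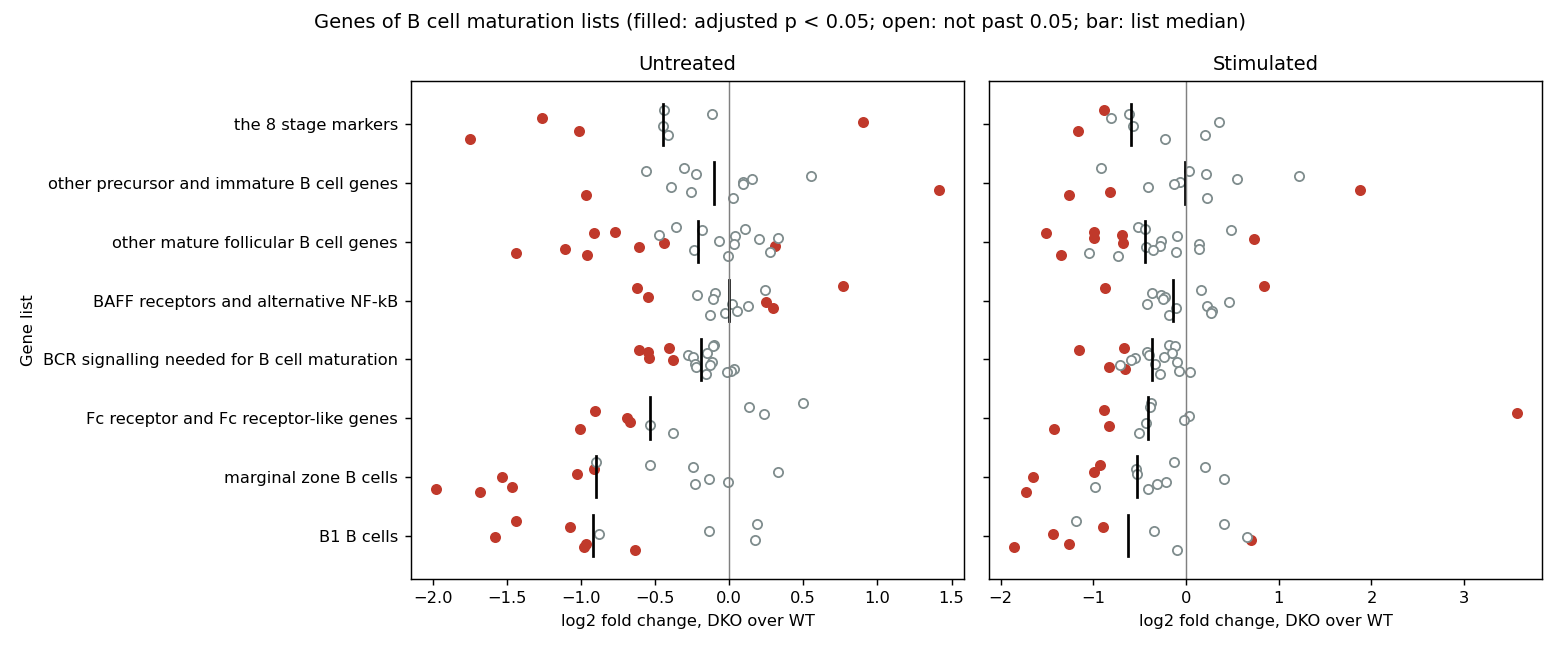
Log2 fold change of DKO over WT for each tested gene of the 8 stage markers and of 7 lists around them, in untreated and stimulated cells. Points are genes, filled where the edgeR adjusted p was under 0.05, and bars are list medians. In untreated cells 7 of 20 follicular genes were lower and 1 higher, against 1 lower and 1 higher of 12 precursor genes.

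Markers of other B cell subsets were counted beside the same shares, 10.6% lower and 8.81% higher among all genes tested. Of 13 marginal zone genes 6 fell in untreated DKO cells, with a median of -0.90. The 14 listed summed to 522 to 531 CPM in DKO libraries and 682 to 780 CPM in WT libraries, with no marker at 0. Of 10 B1 genes 6 fell, with a median of -0.92. The 12 listed summed to 353 to 367 CPM in DKO libraries and 422 to 472 CPM in WT libraries. The lists share some genes, so their counts are not independent. Spn is both a precursor and a B1 gene here, and Il4ra both a follicular and a CD23 gene. Cr2 and Notch2 stand in the CD23 and marginal zone lists. Of 8 plasma cell genes 4 fell, with a median of -0.52, while of 8 germinal centre genes 1 fell, with a median of -0.01, and none of either list rose. Their part in the values of Fcer2a, Cd93 and the others was not tested. The 10 monocyte and macrophage markers summed to 40.7 to 77.3 CPM in DKO libraries and 71.3 to 86.2 CPM in WT libraries.

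In cells stimulated for 48 h, Ms4a4c and Cd24a fell in DKO cells and no other gene of the 8 passed. That is 2 of 8, both lower, against 11.3% of the 14430 genes tested, with 6.17% lower and 5.09% higher. The median log2 fold change of the 8 was -0.59, against -0.03 for all genes tested. The groups did not overlap for 5 of the 8, against 62.7% of all genes tested.

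Ms4a4c had 103 and 74.0 CPM in stimulated DKO libraries, against 210 and 215 CPM in WT libraries. It fell by 1.16 ± 0.21 on the log2 scale (edgeR adjusted p = 0.0126). Cd24a had 240 and 275 CPM in DKO libraries, against 478 and 541 CPM in WT libraries, and fell by 0.89 ± 0.18 (edgeR adjusted p = 0.0195). For both genes the DKO libraries lay below both WT libraries. The Cd24a call rested on single libraries, with an edgeR adjusted p of 0.106 without WT library 1 and 0.228 without the unnumbered WT library, and a range of 3.77e-06 to 0.228 over all alternatives. With 1 library left in a group, that library is taken to vary like the others.

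The stimulated DKO libraries differed from each other in Cd93, which had 8.47 CPM in library 1 and 22.4 CPM in library 2. The WT libraries had 28.2 and 29.0 CPM. The log2 fold change of -0.81 ± 0.35 did not pass (edgeR adjusted p = 0.159). Without DKO library 2 Cd93 stood at -1.59, and without DKO library 1 at -0.28, each with 1 DKO library left. The libraries kept 14.6% and 13.8% of the WT mean of Hnrnpa1 and 18.0% and 22.9% of Hnrnpa2b1.

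Fcer2a showed the same division, with 1318 CPM in stimulated DKO library 1 and 793 CPM in library 2. The WT libraries had 779 and 992 CPM, so that the groups overlapped. The log2 fold change was 0.36 ± 0.27 (edgeR adjusted p = 0.393), and it was 0.74 without DKO library 2 and -0.086 without DKO library 1. The reads of Fcer2a per read of Cd93 were 156 and 35.4 in DKO libraries and 27.6 and 34.2 in WT libraries.

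Fcmr had 359 and 290 CPM in stimulated DKO libraries and 509 and 528 CPM in WT libraries, and its change of -0.58 ± 0.19 did not pass (edgeR adjusted p = 0.0827). Fits without DKO library 1 or without DKO library 2 leave 1 DKO library, so the spread in DKO cells is not measured there. Cd55 had 28.6 and 44.1 CPM in DKO libraries and 44.8 and 73.9 CPM in WT libraries, with -0.61 ± 0.26 (edgeR adjusted p = 0.154). For both genes the groups did not overlap. Vpreb3 had 42 and 24 reads in DKO libraries and 33 and 45 in WT libraries, and Sox4 had 86 and 72 in DKO libraries and 54 and 86 in WT libraries. With so few reads the log2 changes of -0.23 ± 0.41 and 0.20 ± 0.34 had wide 95% intervals, of -1.15 to 0.68 for Vpreb3 and -0.55 to 0.96 for Sox4.

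The stimulated levels per kilobase were ordered Fcer2a (341), Fcmr (187), Cd24a (99.8), Ms4a4c (50.6), Cd55 (7.48), Cd93 (2.31), Vpreb3 (1.96) and Sox4 (0.860) CPM per kb in DKO cells. Only the ranges of Cd93 and Vpreb3 overlapped as neighbours. In WT cells Fcmr (299) and Fcer2a (286) overlapped at the top, followed by Cd24a (197), Ms4a4c (121), Cd55 (12.2), Cd93 (4.28), Vpreb3 (2.49) and Sox4 (0.803).

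The surrounding lists in stimulated cells are given beside 6.17% lower and 5.09% higher among all 14430 genes tested. Of 12 precursor genes Ptprs rose by 1.88 (edgeR adjusted p = 0.00115), and Spn fell by 1.26 (edgeR adjusted p = 0.00668) and Rgs2 by 0.82 (edgeR adjusted p = 0.0432). Of 20 follicular genes 6 fell and 1 rose, with a median of -0.44. Cd38 fell by 1.51 and the inhibitory receptor gene Cd22 by 1.00 (edgeR adjusted p from 0.00401 to 0.0171). The gene that rose was Cxcr5, the receptor for the follicle chemokine, at 0.73, named after its value was seen.

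Of 18 B cell receptor genes 4 fell in stimulated DKO cells, with a median of -0.37. Ptprc fell by 0.84 (edgeR adjusted p = 0.0382) and Btk by 0.67 (edgeR adjusted p = 0.0400). Of 14 BAFF and NF-kB genes Bcl2l1 rose by 0.85 (edgeR adjusted p = 0.0330) and Bcl2l11 fell by 0.87 (edgeR adjusted p = 0.0177). Among the 11 genes linked to CD23 and among 4 complement genes, the complement receptor gene Cr2 fell by 1.00 (edgeR adjusted p = 0.0382). No other gene of these lists passed. Cr2 stands in both, and in the follicular and marginal zone lists too.

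Of 10 Fc receptor genes 3 fell and 1 rose. Pigr fell by 1.43, Fcgr2b by 0.88 and Fcrla by 0.83 (edgeR adjusted p from 0.00831 to 0.0245), and Fcgr3 rose at levels under 1 CPM, named after its value was seen. None of 7 other MS4A genes passed. The 14 marginal zone markers summed to 445 to 511 CPM in stimulated DKO libraries and 646 to 696 CPM in WT libraries, and their part in these values was not tested.

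Stimulated cells were then set against untreated cells of the same genotype. The stimulated cells had also spent 48 h in culture and stand in another table, so culture, table and stimulation cannot be told apart. Both untreated groups also held a library rich in Xist and the stimulated groups did not, and the part of this was not tested. In DKO cells Fcer2a alone of the 8 passed, and it rose, against 33% of the 15006 genes tested, with 16.2% higher and 16.8% lower. The groups did not overlap for 2 of the 8, against 55.5% of genes tested. It averaged 1056 ± 371 CPM in stimulated DKO cells (SD, n = 2) and 484 ± 112 CPM in untreated DKO cells (SD, n = 3), a log2 fold change of 1.21 ± 0.24 (edgeR adjusted p = 0.00227). The other 7 lay between -0.24 for Vpreb3 and 0.62 for Cd93, with edgeR adjusted p from 0.113 to 0.819. Without stimulated DKO library 1 Cd93 was at 1.14, in a fit with 1 stimulated DKO library left. The library left, number 2, had 22.4 CPM of Cd93, against 8.47 CPM in library 1.

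In WT cells 4 of the 8 passed, against 40.6% of genes tested, with 17.8% higher and 22.8% lower. The groups did not overlap for 6 of the 8, against 66.9% of genes tested. Fcer2a averaged 885 ± 151 CPM in stimulated WT cells (SD, n = 2) and 273 ± 46.4 CPM in untreated WT cells (SD, n = 3), and rose by 1.70 ± 0.24 (edgeR adjusted p = 0.000167). Cd24a averaged 509 ± 44.2 CPM in stimulated and 300.2 ± 47.8 CPM in untreated WT cells, and rose by 0.77 ± 0.21 (edgeR adjusted p = 0.0108). Cd55 averaged 59.3 ± 20.6 CPM in stimulated and 32.3 ± 3.17 CPM in untreated WT cells, and rose by 0.88 ± 0.19 (edgeR adjusted p = 0.00292). In WT cells the genes that rose thus held an early marker, Cd24a, as well as later ones.

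Vpreb3 averaged 2.14 ± 0.599 CPM in stimulated and 7.45 ± 3.05 CPM in untreated WT cells, and fell by 1.80 ± 0.43 (edgeR adjusted p = 0.00503). It was the 1 gene of the 8 that fell. Fcmr at 0.48, Ms4a4c at 0.18, Cd93 at 0.16 and Sox4 at -0.15 did not pass (edgeR adjusted p from 0.0796 to 0.713). Without the unnumbered stimulated WT library the adjusted p in edgeR was 0.0831 for Cd24a and 0.0868 for Cd55, and without stimulated WT library 1 it was 0.0658 for Vpreb3.

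**Figure D4:**
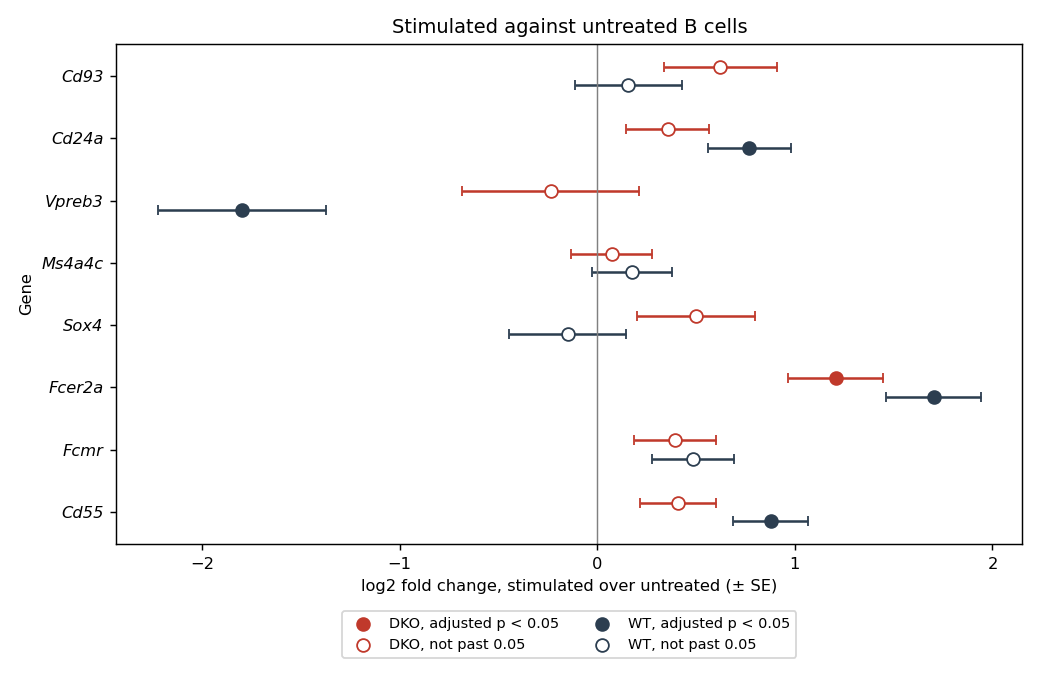
Log2 fold change of stimulated over untreated cells (± SE) for each gene, in DKO and in WT cells. Filled points passed an edgeR adjusted p of 0.05. Fcer2a passed in both genotypes, at 1.21 in DKO and 1.70 in WT cells, while Vpreb3 was at -0.24 in DKO and -1.80 in WT cells.

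Lists around these genes were counted in both genotypes. Among all genes tested, 16.2% were higher and 16.8% lower in stimulated DKO cells, and 17.8% higher and 22.8% lower in stimulated WT cells. Of 12 precursor and immature genes, 8 rose and 1 fell in stimulated DKO cells, and 5 rose and 2 fell in stimulated WT cells. Of 20 follicular genes, 6 rose and none fell in DKO cells, and 12 rose and 1 fell in WT cells. Of 18 B cell receptor genes, 6 rose in DKO cells and 9 in WT cells, and none fell. Of 13 marginal zone genes, 1 rose and 4 fell in DKO cells, and 3 rose and 6 fell in WT cells.

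Whether the DKO change differed between stimulated and untreated cells was tested by the interaction of genotype and stimulation. None of the 8 passed in edgeR or in DESeq2, against 0.14% of the 15006 genes tested in edgeR, 0.133% with a positive term and 0.00666% with a negative one. At an unadjusted p under 0.05 there was 1 gene, Vpreb3, with a term of 1.56 ± 0.61 (edgeR adjusted p = 0.361). Vpreb3 was low in DKO cells in both states and low in WT cells after stimulation. The remaining terms ran from -0.49 ± 0.35 for Fcer2a to 0.65 ± 0.42 for Sox4. Their 95% intervals, such as -0.39 to 1.32 for Cd93 and -0.73 to 0.52 for Ms4a4c, are wide.

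Across the 10 libraries of these 4 groups the 8 genes did not follow a single course. Log2 CPM of Cd24a and Fcmr had a Pearson correlation of 0.95, given as a description, since the libraries share group and depth. Fcer2a ran against Vpreb3 (-0.64) and hardly with Cd93 (-0.23). Among 9395 genes the closest to Cd93 was Stx17 (0.98), to Cd24a Camk2d and Scd2 (0.97 each), and to Vpreb3 Eif4e3 (0.93) and Pkm (0.92). The closest to Ms4a4c were Ubash3b and Arsa (0.98 each), to Sox4 Slc15a2 (0.86) and Nudt13 (0.86), to Fcer2a Parp1 and Ly9 (0.98 each), to Fcmr Dusp7 (0.97) and Dexi (0.96), and to Cd55 Mtmr3 and Klhl24 (0.96 each).

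The additional WT libraries stood apart from the numbered WT libraries in 7 of the 8 genes. Sox4 had 102 and 43.9 CPM (1534 and 715 reads) in the additional libraries, against 3.91, 3.86 and 5.02 CPM in the numbered ones, 17.1 times as much on average. Of 13427 genes with at least 1 CPM in a group, 0.551% had a ratio of 10 or more, and Sox4 was number 31 by ratio. Cd93 had 103 and 79.5 CPM in the additional libraries, 3.54 times the numbered mean. Both additional libraries also exceeded every numbered WT library in Cd55, Fcer2a, Vpreb3, Cd24a and Fcmr.

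Ms4a4c did not differ in this way, with 191 and 198 CPM in the additional libraries and 181 to 205 CPM in the numbered WT libraries. Both libraries were above every numbered one in 36.4% of all genes and below in 37.6%, and 2014 genes had a ratio of 2 or more. Early and later markers were higher together, and the reads of Fcer2a per read of Cd93 were 5.30 and 9.11, against 8.98 to 12.4 in numbered WT libraries. Of 12 other precursor genes 9 were higher and 2 lower in the additional libraries, with Marcks 2.35 times and Il7r 1.78 times, and Kit 0.231 times, the numbered mean. Rag1, Rag2, Dntt and Igll1 stayed at or near 0.

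**Figure D5:**
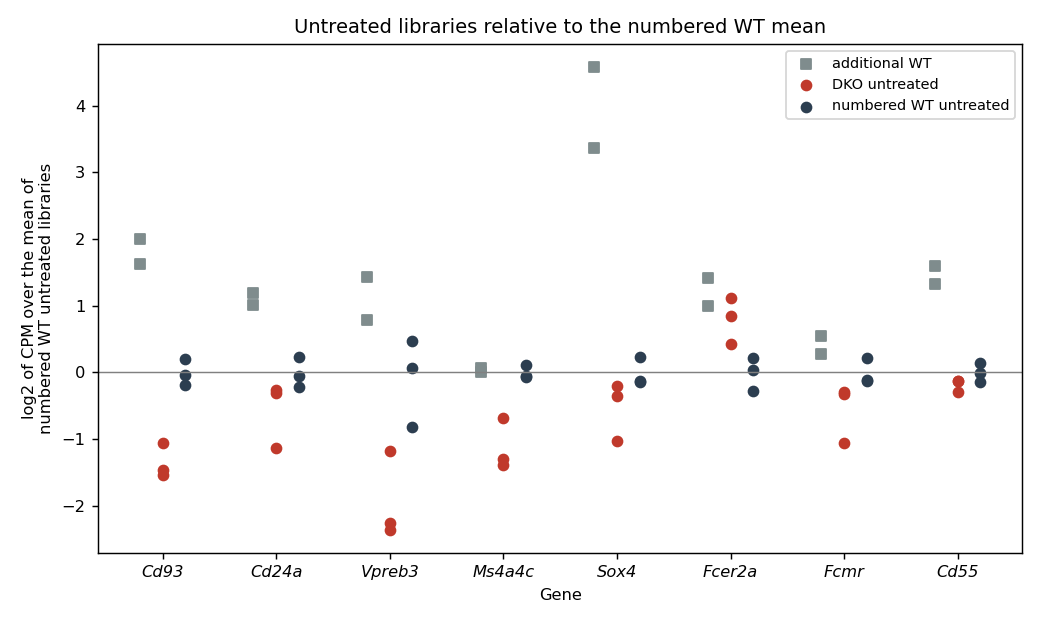
Log2 of CPM over the mean of the numbered untreated WT libraries, for each gene in additional WT, DKO untreated and numbered WT untreated libraries. Each point is a library. Both additional WT libraries lie above 3 in Sox4 and near 0 in Ms4a4c, while the DKO libraries lie below the WT libraries in Cd93, Vpreb3 and Ms4a4c.

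The 10 monocyte and macrophage markers summed to 199 to 249 CPM in the additional libraries, against 71.3 to 86.2 CPM in the numbered WT libraries, most of it Adgre1, while Lyz2 was lower. The additional libraries stand in a table whose gene coordinates matched the older build GRCm38 in 99.6% of genes, against 2.88% in the table of untreated cells. The part of either in these levels was not tested, and no test was made of 2 libraries from another table. With the additional libraries counted as WT, 1 of the 8 genes passed for DKO against WT in untreated cells. Ms4a4c passed, and Cd93 at -2.29 (edgeR adjusted p = 0.0772), Vpreb3 at -2.33 (edgeR adjusted p = 0.0586) and Fcer2a at 0.27 (edgeR adjusted p = 0.669) did not. Cd93 and Vpreb3 were lower in untreated DKO cells than in either set of WT libraries. Both genes were higher in additional than in numbered WT libraries, so the second comparison adds nothing to the first. Fcer2a was also higher in additional WT than in untreated DKO cells on average, at 636 against 484 CPM, as was Cd55, at 89.1 against 28.4 CPM.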

How the data were processed

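Splenic B cell poly(A) RNA from mice was sequenced in 12 libraries, per the labels. Deposited raw counts per Ensembl gene were used, from 3 tables. The submitters' processing notes name FastQC 0.10.1, cutadapt 1.9.1, HISAT2 2.2.1 and HTSeq 0.6.1, and the genome build GRCm39. They give neither a strand setting nor an annotation release, so overlapping genes are uncertain. Another 12 columns of FPKM values were not used. A stimulated WT column bears the number 3, which no stimulated WT library has in the labels (they number them 1 and 2), and is called unnumbered.

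CPM printed here are counts scaled by a library's plain total. The quasi-likelihood test of edgeR 4.0.16 (R 4.3.3, TMM scaling, two-sided) was run on genes that passed filterByExpr (minimum count 10, minimum total 15). Benjamini-Hochberg adjustment covered every gene tested, at a threshold of 0.05. DKO and WT were compared in separate fits of 6 untreated and 4 stimulated libraries. Stimulated against untreated cells and the interaction came from 1 fit over 10 libraries. SE is the absolute log2 fold change over the square root of F. The pipeline was tested on simulated counts. As alternatives, DESeq2 1.42.0 was run, and edgeR with RLE scaling, no filter, a stricter filter of 1 CPM, each library left out, a replicate block, immunoglobulin genes left out, 1 fit over 10 libraries, the additional libraries as WT, or the 2 libraries rich in Xist left out.

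The 8 genes, the gene lists and the tests were chosen with earlier results of these data known. Named genes are the 8, both targeted genes, up to 4 genes of each list with the smallest p in untreated and 3 in stimulated cells, and the 2 of most like pattern for each of the 8 among genes with a mean of 5 CPM or more, exceptions being stated. A few genes under this rule are left unreported.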

Additional observations from a re-analysis of the deposited data

Results flagged for a closer look

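The additional WT libraries were not part of the comparisons, and both lay above every numbered untreated WT library in 7 of the 8 genes. Among 13427 genes with at least 1 CPM in a group, both lay above in 36.4% and below in 37.6%. A ratio of means of 2 or more was found in 15% of those genes. The mean of the additional libraries over the mean of the numbered WT libraries was 17.1 for Sox4, 3.54 for Cd93, 2.76 for Cd55, 2.33 for Fcer2a, 2.21 for Vpreb3, 2.15 for Cd24a and 1.33 for Fcmr. These ratios compare 2 with 3 libraries of different tables, with no test. Sox4 differed between the additional libraries themselves, with 23.8 times the numbered mean in library 1 and 10.3 times in library 2.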

How the results depend on the processing

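In untreated cells Cd93, Ms4a4c and Fcer2a passed under every alternative run except the additional libraries counted as WT, which left 1 of the 8 genes called, Ms4a4c, and 319 genes in all, against 2638. RLE scaling, DESeq2, the stricter filter, the single fit and the fit without immunoglobulin genes left 4 of the 8 called in untreated cells. Over all genes they gave 4291 to 4711 at an unadjusted p under 0.05 (edgeR or DESeq2), against 4700 in the main edgeR test. Leaving out 1 library gave 3 to 4 of the 8 in untreated cells (923 to 2779 genes in all), 1 to 6 in stimulated cells (576 to 5977), 1 to 3 for stimulated against untreated DKO cells, 2 to 5 for WT cells (3557 to 7031), and 0 for the interaction (1 to 1244). Without a filter 5 of the 8 were called in stimulated cells (2847 genes against 1625), 5 for stimulated against untreated DKO cells and 1, Vpreb3, for the interaction (491 genes against 21). For stimulated against untreated DKO cells, 7294 genes had an unadjusted edgeR p under 0.05 without a filter, against 6498 with it. With the filter and 1 untreated library left out, 5745 to 6561 genes did so in this comparison. In untreated cells no filter also added Cd24a and Fcmr, giving 6, and without the 2 libraries rich in Xist Cd24a was added, giving 5. Both settings brought more of all genes to an unadjusted edgeR p under 0.05, 5644 and 5338 against 4700. The single fit called 3429 genes in stimulated cells, and DESeq2 called 174 for the interaction. DESeq2 also called Fcmr in stimulated cells (-0.55, DESeq2 adjusted p = 0.0416). For these changes of calls the cause was not tested.

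The replicate block called 786 genes in untreated cells and 3 of the 8, with Vpreb3 at -1.74 (edgeR adjusted p = 0.0867). Same-numbered DKO and WT libraries had correlations of deviations of -0.35, -0.35 and 0.14, and differently numbered ones of -0.21 to 0.44. With groups of 3 these values cannot show whether same-numbered libraries share more than a number. No paired analysis was possible in stimulated cells because the columns share a single number.

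Directions that turned when 1 library was left out were all of values that had not passed. In stimulated cells DKO over WT ranged from -0.50 to 0.055 for Vpreb3, -0.13 to 0.63 for Sox4 and -0.086 to 0.74 for Fcer2a. Stimulated over untreated DKO ranged from -0.14 to 1.14 for Cd93, -0.55 to 0.25 for Vpreb3 and -0.26 to 0.34 for Ms4a4c, and in WT cells from -0.57 to 0.19 for Sox4. The interaction ranged from -0.29 to 0.98 for Cd93, -0.43 to 0.17 for Ms4a4c and -0.31 to 0.12 for Fcmr. Vpreb3 and Sox4 had under 100 reads in most numbered libraries, which limits their precision, and groups of 2 stimulated libraries limit every stimulated value.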
